A study of Mus musculus with 8 samples.

Results

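The genes for histone-modifying enzymes, DNA methylation enzymes and ATP-dependent chromatin remodellers were examined in the mouse medial ganglionic eminence (MGE) with and without Nkx2-1. Members were chosen by symbol. These were the genes whose symbols begin with Hdac, Chd or Dnmt and a digit, or with Kdm, Kmt2 or Smarc, together with Ezh1, Ezh2, Eed, Suz12, Ring1, Rnf2, Bmi1, Ep300, Crebbp and the Tet genes. Of the 17178 gene symbols matched on the array, 64 fitted this rule, and they were read by 116 of 41174 probes. No probe was matched to Hdac1, Kmt2a, Kmt2d, Kmt2e, Kdm5a, Chd2, Chd7, Tet1 or Tet3, so the results do not cover these genes. Of these genes, 30 had 1 probe and 34 had several, with 5 at most. They lay on 21 chromosomes.

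RNA was taken from microdissected MGE of C57BL/6 embryos at E13.5 and hybridised with each sample on its own array. There were 4 WT and 4 Nkx2-1cKO samples. The labels give the WT genotype as Nkx2-1flox/+ without the Cre (Olig2tva-cre-) and the mutant genotype as Nkx2-1flox/+ with it (Olig2tva-cre+), so both carried a floxed allele. The Cre is driven by Olig2 regulatory sequence, and the tissue holds cells in which it may not act. A heterozygous floxed genotype is thus what the labels state for the mutant, whereas the study's methods name a strain homozygous for the floxed allele. Nkx2-1 itself, a homeodomain transcription factor that specifies the MGE, had a log2 signal between 1.82 and 1.95 in WT and between -4.67 and -4.26 in the Nkx2-1cKO. This left 1.24% of the WT level (log2 fold change -6.34, standard error 0.11, adjusted p = 4.77e-09, limma). Nothing in the labels says whether the 4 samples of a group came from separate embryos or litters, so the p-values below measure the spread between these samples.

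Chromatin modifiers set how accessible DNA is to transcription factors. Acetyltransferases and trithorax-type methyltransferases add marks found at active promoters and enhancers, deacetylases and demethylases remove marks, Polycomb complexes place repressive marks on histones H3 and H2A, and remodellers slide or evict nucleosomes with energy from ATP. Developing forebrain depends on many of them, and mutations in several human orthologues cause neurodevelopmental disorders.

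Signals are given as the log2 of each probe's intensity relative to the 75th percentile of its array, so 0 marks the level of that percentile, and they compare the same probe between arrays only. A probe was called when its limma p, adjusted by Benjamini-Hochberg over all tested probes, was under 0.05. All 116 member probes passed the filter on dim probes, which asked for a signal well above background on 4 or more arrays. Of them, 115 were well above background on all 8 arrays, and the exception was the Kdm5d probe, which passed through 2 WT and 3 Nkx2-1cKO arrays.

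As a background on sequence, promoters of 54 of the 64 genes were found in RefSeq (GRCm38.p6), 74 in all, and some of these overlap. In the 250 bases before the start they held a median of 20 CG pairs (0 to 56) and 63.6% G and C, where all 32851 promoters held a median of 6 CG pairs and 52.4%. The ratio of observed to expected CG pairs was above 0.6 in 74.3% of the members' promoters and in 34.0% of all promoters. Motifs were searched as exact letters on both strands. The GC box GGGCGG was found in 63.5% of the members' promoters and 32.7% of all. The TATA box TATAAA was found in 5.41% of the members' promoters against 12.4% of all, and CCAAT in 29.7% against 33.8%. The core CACTTNA, bound by NK-type homeodomain proteins, was found in 6 of 74 member promoters and 3305 of all 32851, and TAATTA, a core of LIM-type homeodomain proteins, in 0 of 74 member promoters and 4.84% of all. A set of 4 promoters is printed with CG pairs in capitals, for the gene with the 1 called probe (Smarcc1) for Kdm5d, whose signal set arrays apart within both groups, and for the X-linked demethylase genes read beside it (Kdm6a, Kdm5c).
Smarcc1, chr9:110131774-110132023, plus strand: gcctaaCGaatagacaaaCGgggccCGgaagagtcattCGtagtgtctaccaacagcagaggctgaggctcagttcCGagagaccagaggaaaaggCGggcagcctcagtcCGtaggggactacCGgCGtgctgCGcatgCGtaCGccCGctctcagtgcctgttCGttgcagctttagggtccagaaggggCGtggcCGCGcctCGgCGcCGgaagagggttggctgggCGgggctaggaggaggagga
Kdm6a, chrX:18162325-18162574, plus strand: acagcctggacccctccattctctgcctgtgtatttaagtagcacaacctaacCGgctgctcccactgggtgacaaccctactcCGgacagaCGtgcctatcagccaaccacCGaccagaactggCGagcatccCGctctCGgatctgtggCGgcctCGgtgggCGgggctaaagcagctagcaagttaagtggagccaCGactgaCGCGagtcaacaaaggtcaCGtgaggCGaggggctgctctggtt
Kdm5c, chrX:152232977-152233226, plus strand: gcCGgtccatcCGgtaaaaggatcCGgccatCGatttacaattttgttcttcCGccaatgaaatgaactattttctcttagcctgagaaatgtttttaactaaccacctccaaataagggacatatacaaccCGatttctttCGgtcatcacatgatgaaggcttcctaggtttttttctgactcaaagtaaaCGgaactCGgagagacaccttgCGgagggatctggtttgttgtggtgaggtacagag
Kdm5d, chrY:897538-897787, plus strand: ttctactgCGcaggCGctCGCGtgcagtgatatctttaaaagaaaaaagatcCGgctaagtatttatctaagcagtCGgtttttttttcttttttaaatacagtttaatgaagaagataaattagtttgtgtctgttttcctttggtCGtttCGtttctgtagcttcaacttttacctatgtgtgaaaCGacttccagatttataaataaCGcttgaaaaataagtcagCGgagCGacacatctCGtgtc
These windows held 21, 15, 10 and 13 CG pairs, in the order printed. The Smarcc1 window had 63.6% G and C and the Kdm5d window 36.4%.

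The comparison asked which transcripts depend on Nkx2-1 in the MGE. No member probe was higher in the Nkx2-1cKO and 1 of 116 was lower, a dim probe for Smarcc1. This is 0.862% of the member probes, beside 1.04% called among all 31283 tested probes (0.422% higher and 0.614% lower). The groups did not overlap for 1 probe that was higher and 8 that were lower, 7.76% of the member probes. Among all tested probes 6.46% had no overlap, with 2.33% higher and 4.12% lower. Unadjusted limma p-values were under 0.05 for 3 of 116 member probes above 0 and 12 of 116 below. Among all 31283 tested probes they were so for 1037 above (3.31%) and 1661 below (5.31%). The members thus had the smaller share above 0 and the larger share below. The member probes above 0 were 2 deacetylase probes and 1 SWI/SNF probe. Those below were 4 demethylase, 3 Kmt2, 3 CHD and 2 SWI/SNF probes, with none among the acetyltransferase, Polycomb and DNA methylation genes. Without WT replicate 1 the member counts were 0 above and 6 below, and the share of all tested probes is not given for that fit. The median log2 fold change was -0.07 over the member probes and -0.04 over all tested probes, and 75 member probes (64.7%) lay below 0 against 57.5% of all. Of the 58 dimmer member probes 42 lay below 0 (median -0.16), and of the 58 brighter ones 33 (median -0.06). Without WT replicate 1 these counts were 35 and 32. The sign of the member median moved with the scaling, but it lay below the median of all probes under each scaling given here. Under quantile normalization the member median was -0.09, where that of all probes was 0.01, and 80 member probes lay below 0. The member median was 0.05 with arrays centred on their median, where that of all probes was 0.08, and 0.01 with normexp background correction, where that of all probes was 0.19, and 46 and 58 member probes then lay below 0. In bulk RNA, fewer cells of a type and less RNA per cell cannot be told apart.

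The arrays bounded most of these genes. For 110 of the 116 member probes (94.8%) the 95% interval of the log2 fold change lay within 1 of 0, a change of less than 2-fold either way, compared with 78.7% of all tested probes. It lay within 1.5-fold for 78 member probes (67.2%), compared with 56.8% of all. By brightest probe, the interval stayed within 2-fold for 63 of 64 genes and within 1.5-fold for 52. Among all of about 14450 tested genes it did so for 12041 and 9589. Of the 202 probes of related chromatin genes described below, 94.1% were within 2-fold and 82.2% within 1.5-fold, so such bounds were not particular to the members. These bounds depended on the scaling. Under normexp the interval was within 2-fold for 98 member probes (84.5%, beside 56.5% of all) and 59 genes, and Crebbp, Ezh1, Dnmt3l and Kdm4d were among those it no longer bounded. Under median centring 43 genes were within 1.5-fold. Kdm5d, on the Y chromosome, was the gene that was not bounded. Leaving Kdm5d aside, 4 of 115 member probes (3.48%) had a log2 fold change beyond 0.5 in either direction, against 12.8% of all tested probes.

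**Figure D1:**
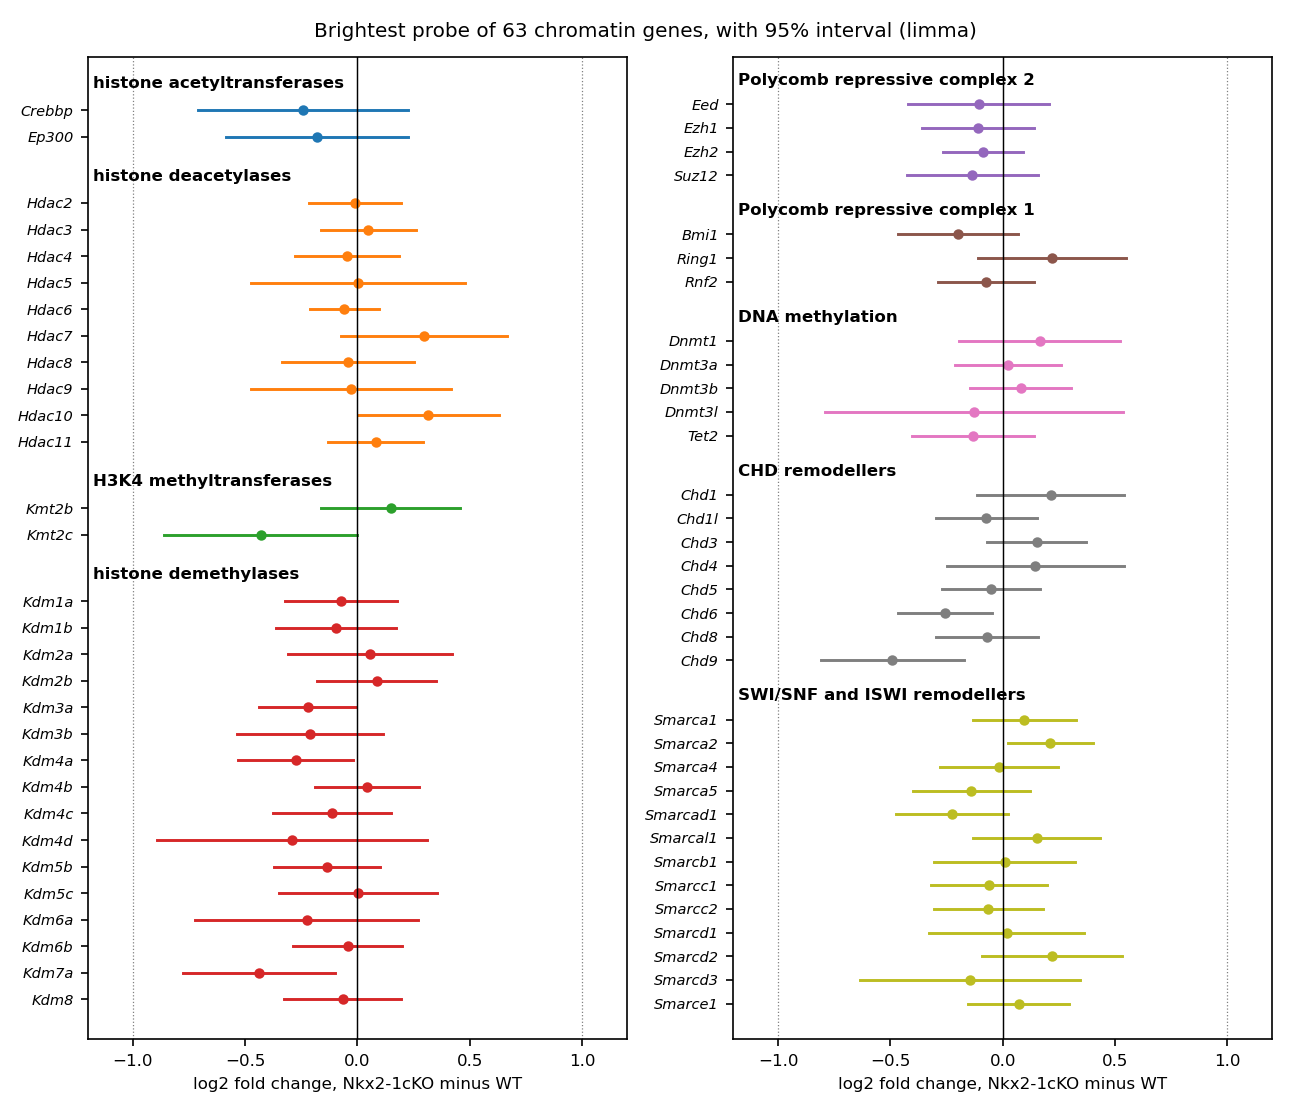
Log2 fold change (Nkx2-1cKO minus WT, x axis) of the brightest probe of 63 chromatin genes, grouped by role, with points for the limma estimate and lines for its 95% interval. Kdm5d is left out because its interval runs from -3.17 to 6.69, and all intervals drawn lie between the dotted lines at -1 and 1.

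**Figure D2:**
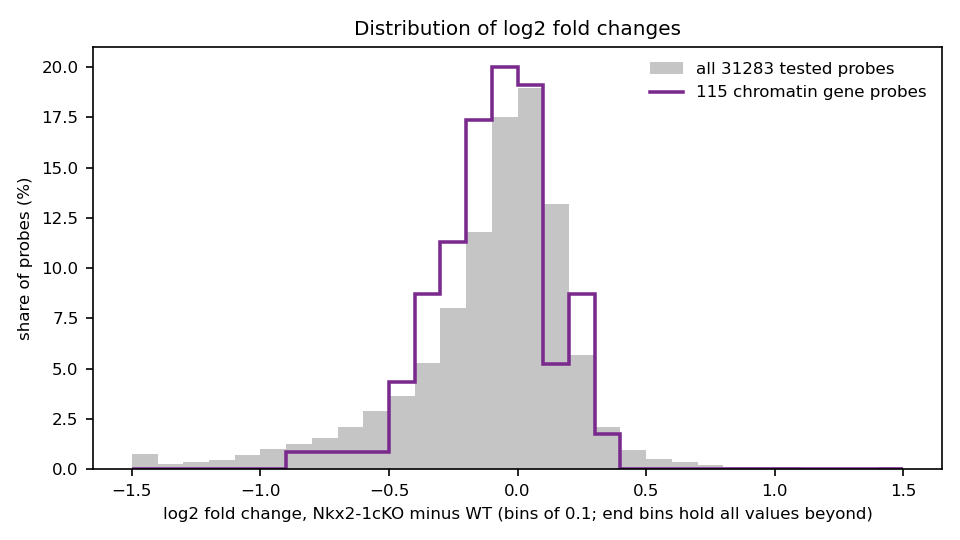
Share of probes (%, y axis) by log2 fold change (Nkx2-1cKO minus WT, x axis, bins of 0.1) for all 31283 tested probes (grey) and for 115 chromatin gene probes without Kdm5d (line). The members' line has no probe beyond -0.9 or above 0.4, where the grey distribution has tails on both sides.

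The samples also differed in other genes. Of markers of MGE-derived neurons, 15 of 21 probes were lower in the Nkx2-1cKO. The linear signal of their 12 genes, relative to each array's 75th percentile and summed, was between 59.1 and 61.2 in WT and between 12.4 and 14.1 in the Nkx2-1cKO. Of lateral and caudal eminence markers, 7 of 16 probes were higher, with summed levels of 43.1 to 57.4 in WT and 81.4 to 90.3 in the Nkx2-1cKO. No probe was called among markers of dividing progenitors, radial glia, postmitotic neurons, endothelium, microglia or erythroid cells. Of 19 postmitotic neuron probes, however, 6 were below 0 with an unadjusted limma p under 0.05 and 5 had groups that did not overlap, all lower (26.3%, beside 4.12% of all tested probes). The summed level of 9 mesenchyme genes was 8.55 on WT replicate 4 and between 1.87 and 2.62 on all other arrays. Of their 11 probes 1 was lower, that of Pdgfra, a growth factor receptor gene (log2 fold change -1.76, adjusted p = 4.90e-05, limma). Its WT values were -1.65, -1.84, -1.97 and -1.69, so Pdgfra did not share the high level of WT replicate 4. The part of these differences in any member's value was not tested. On the WT arrays 76% to 79.4% of all probes were well above background. On Nkx2-1cKO replicates 1 to 3 it was 71.1% to 72.4%, and on Nkx2-1cKO replicate 4 it was 79.5%. The arrays lay on 2 slides of 2 WT and 2 Nkx2-1cKO samples each. WT replicates 1 and 3 and Nkx2-1cKO replicates 2 and 4 were on slide 1. WT replicate 1 stood apart, with the highest signal of all 8 arrays for 48 of 116 member probes (41.4%) and for 37.0% of all tested probes. Without it, the median log2 fold change was -0.03 over the member probes and -0.004 over all tested probes, and 67 of 116 member probes lay below 0.

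The histone acetyltransferases Ep300 and Crebbp, coactivators that acetylate H3K27 at enhancers, were not called. The brightest Ep300 probe read -0.05, -0.85, -0.62 and -0.80 in WT replicates 1 to 4 and -1.07, -0.63, -0.70 and -0.64 in Nkx2-1cKO replicates 1 to 4. WT replicate 1 was the highest and Nkx2-1cKO replicate 1 the lowest, and the other 6 arrays lay together. Its log2 fold change was -0.18 (95% interval -0.59 to 0.22, adjusted p = 0.74, limma) and went to -0.01 without WT replicate 1. A second, dim Ep300 probe gave -0.37, and 0.25 under normexp. Crebbp had the same arrays at its ends, with -2.41 on WT replicate 1, -3.57 on Nkx2-1cKO replicate 1 and -3.38 to -3.09 on the rest. Its log2 fold change was -0.24 (interval -0.71 to 0.23) and -0.05 without WT replicate 1, and it was 0.27 under normexp.

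Histone deacetylases remove acetyl groups from histone tails. Of 10 genes with 14 probes, none was called, with a median log2 fold change of 0.00 (0.12 under median centring and 0.13 under normexp). Hdac2 and Hdac3, catalytic subunits of large corepressor complexes, were among the most tightly bounded members. Hdac2 lay between -0.50 and -0.22 in WT and between -0.49 and -0.31 in the Nkx2-1cKO, a level of 99.2% of WT with a 95% interval of 86.0% to 114%. Hdac3 lay between 2.09 and 2.34 in WT and between 2.06 and 2.39 in the Nkx2-1cKO, 103% of WT (89.3% to 120%). The highest estimates of the family belonged to Hdac7, a class IIa enzyme, and Hdac10, a class IIb enzyme. Both Hdac10 probes lay above 0 (0.32 and 0.24), as did both Hdac7 probes (0.30 and 0.32), under each scaling, and WT replicate 1 was the lowest of the 8 arrays on each of the 4. Without it the estimates were 0.18 and 0.11 for Hdac10 and 0.15 and 0.22 for Hdac7. On the brightest Hdac10 probe the WT values were 1.13, 1.73, 1.54 and 1.78 and the Nkx2-1cKO values 1.84, 1.82, 2.02 and 1.77. The groups overlapped and the adjusted p was 0.576 (limma).

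Hdac5, another class IIa deacetylase, separated by slide and not by genotype. Its single probe read 2.67 and 2.80 in WT and 2.62 and 2.85 in the Nkx2-1cKO on slide 1. On slide 2 it read 2.18 and 2.06 in WT and 2.06 and 2.20 in the Nkx2-1cKO. The slides did not overlap, whereas the genotypes had a log2 fold change of 0.00 (interval -0.47 to 0.48). In the fit with slide as a block, the slide difference of Hdac5 was -0.61 (slide 2 minus slide 1, adjusted p = 0.0011, limma). A slide difference was called for 15 of the 116 member probes (12.9%) beside 14.3% of all tested probes. Among them was Smarcb1, the common core subunit of SWI/SNF complexes, which was higher on slide 2 by 0.39 (adjusted p = 0.0024, limma) with a genotype difference of 0.01. Over 115 member probes without Kdm5d, the median absolute log2 difference was 0.14 between genotypes and 0.18 between slides, and the slide difference was the larger for 65 (56.5%, beside 57.9% of all tested probes). Slides were read in separate scanning runs, and slide and run cannot be told apart.

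**Figure D3:**
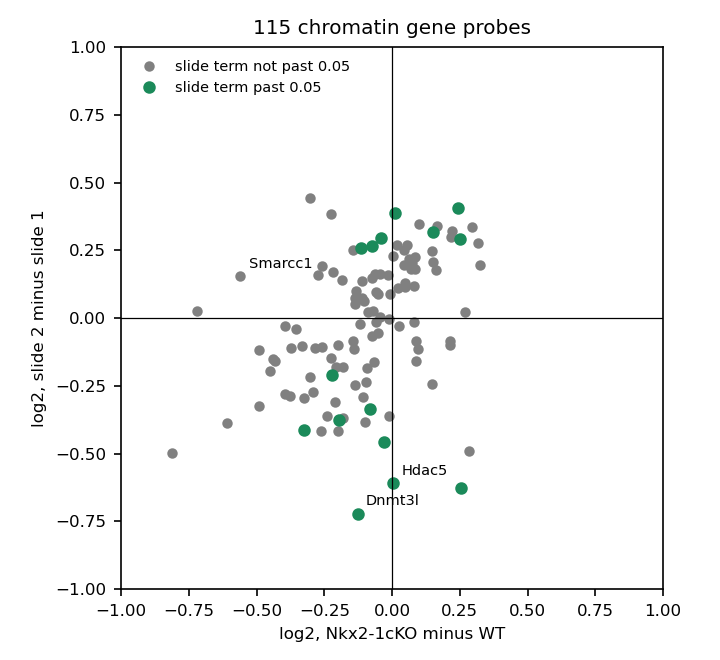
Log2 difference between genotypes (Nkx2-1cKO minus WT, x axis) and between slides (slide 2 minus slide 1, y axis) for 115 chromatin gene probes without Kdm5d. Green points are the 15 probes whose slide term passed an adjusted p of 0.05, and Hdac5 sits on the genotype zero line at -0.61.

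H3K4 methyltransferases of the Kmt2 family were read by Kmt2b and Kmt2c, with 7 probes, none called. Kmt2c encodes a methyltransferase that marks enhancers with H3K4 monomethylation. Its brightest probe read 2.56, 1.88, 1.67 and 1.59 in WT and 1.38, 1.45, 1.68 and 1.47 in the Nkx2-1cKO. WT replicate 1 stood well above the other 7 arrays, and the groups overlapped through Nkx2-1cKO replicate 3. All 5 Kmt2c probes had estimates below 0, from -0.49 to -0.20, and for 2 dim ones the groups did not overlap (-0.49, adjusted p = 0.606, and -0.45, adjusted p = 0.532, limma). Under normexp these 2 gave 0.13 and 0.17, while the 2 brightest stayed below 0 under each scaling. On the brightest probe the log2 fold change was -0.43 (74.2% of WT, interval 55.1% to 99.8%, adjusted p = 0.576, limma), with -0.65 on slide 1 and -0.21 on slide 2. Without WT replicate 1 it was -0.22, and 1 of the other Kmt2c probes then lay above 0, at 0.07. The brightest Kmt2b probe had a log2 fold change of 0.15 (interval -0.16 to 0.46). A dim second Kmt2b probe was of the opposite sign, at -0.61 (interval -1.62 to 0.40), at -0.18 without WT replicate 1 and at 0.46 under normexp.

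Polycomb repressive complex 2 trimethylates H3K27 and has Ezh1 or Ezh2 as its catalytic subunit, with Eed and Suz12 as its core partners. None of its 5 probes was called. Ezh2 lay between 2.75 and 2.96 in WT and between 2.65 and 2.87 in the Nkx2-1cKO, 94.0% of the WT level (95% interval 83.1% to 106%). Ezh1, Eed and Suz12 had log2 fold changes of -0.11, -0.11 and -0.14 on their brightest probes, all with overlapping groups and intervals within 1.5-fold. The brightest probe of all 4 genes was thus below 0, but a second Suz12 probe was at 0.27. Under centring on the array median, where the median of all probes was 0.08, the estimates of Eed, Ezh1 and Ezh2 were above 0. In Polycomb repressive complex 1, which ubiquitinates H2A, the E3 ligases Rnf2 and Ring1 had log2 fold changes of -0.07 and 0.22 and the cofactor Bmi1 -0.20. All 6 probes of these complex 1 genes were uncalled, with adjusted p of at least 0.652 (limma).

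Histone demethylases were the largest class of enzymes, with 17 genes and 25 probes, none called. By probe, 19 of 25 lay below 0 with a median of -0.11, which was similar under quantile normalization (19 of 25, median -0.13) and normexp (18 of 25, median -0.11). The medians of all tested probes were -0.04, 0.01 and 0.19 in these fits, and in the main fit 57.5% of all lay below 0. Under median centring 12 of 25 lay below 0, with a median of 0.01, where that of all probes was 0.08. Kdm4a, an H3K9 and H3K36 demethylase, had WT values of -1.47, -1.46, -1.43 and -1.19 and Nkx2-1cKO values of -1.55, -1.62, -1.59 and -1.91. Each Nkx2-1cKO array was below each WT array. The log2 fold change was -0.28 (interval -0.53 to -0.02, adjusted p = 0.538, limma), and the slides gave -0.31 and -0.24. It was -0.16 under median centring and -0.11 under normexp. Kdm7a, which removes methyl groups from H3K9 and H3K27, had estimates of -0.44, -0.30 and -0.35 on its 3 probes, of which the last 2 were at 0.43 and 0.12 under normexp. Without WT replicate 1 the 3 probes gave -0.29, -0.21 and -0.24. The groups did not overlap on 1 of them, with -2.48, -2.97, -3.05 and -2.82 in WT and -3.22, -3.18, -3.08 and -3.23 in the Nkx2-1cKO. The gap between the groups was 0.04, between WT replicate 3 and Nkx2-1cKO replicate 3. The H3K4 demethylase Kdm1a and the H3K27 demethylase Kdm6b stayed within their group spreads, with log2 fold changes of -0.07 and -0.04. Kdm4d, a relative of Kdm4a with a dim probe, had WT values of -5.96 to -4.87 and Nkx2-1cKO values of -5.83 to -5.51.

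Kdm5d, an H3K4 demethylase gene on the Y chromosome, split the arrays within both groups. It read -7.77, -0.58, -0.45 and -7.85 in WT and -7.86, -0.61, -0.64 and -0.50 in the Nkx2-1cKO. The probe was not well above background on WT replicates 1 and 4 and on Nkx2-1cKO replicate 1, and lay between -0.64 and -0.45 on the other 5 arrays. Ddx3y and Eif2s3y, also Y-linked, were low on the same 3 arrays. Xist, the RNA that silences an X chromosome in female cells, read -0.45 and -1.11 on those WT arrays and -0.96 on that Nkx2-1cKO array, and between -9.41 and -9.05 elsewhere. The labels give no embryo sex, and the WT group held 2 arrays and the Nkx2-1cKO group 1 array with this pattern. The log2 fold change of Kdm5d was 1.76, with an interval of -3.17 to 6.69 (adjusted p = 0.79, limma). On slide 2, where each group had 1 array of each kind, it was -0.04.

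Kdm6a, the X-linked H3K27 demethylase gene, read -0.40, -0.83, -1.08 and -0.20 in WT and -0.41, -1.17, -0.75 and -1.08 in the Nkx2-1cKO. Its 3 highest values lay on the 3 arrays that were low in Kdm5d. Kdm6a is known as a gene that escapes X inactivation. Its log2 fold change was -0.23 (interval -0.72 to 0.27, adjusted p = 0.734, limma), with -0.39 on slide 1 and -0.06 on slide 2, and the part that embryo sex has in it was not tested. Kdm5c, the X-linked counterpart of Kdm5d and another known escapee, was less regular. Its brighter probe read 2.36, 2.12, 1.72 and 2.22 in WT and 2.25, 1.77, 2.29 and 2.12 in the Nkx2-1cKO, so that Nkx2-1cKO replicate 3 was among the high arrays although its Kdm5d signal was high too. A second Kdm5c probe read 1.17, 0.82, 0.66 and 1.09 in WT and 0.89, 0.64, 0.85 and 0.93 in the Nkx2-1cKO, with Nkx2-1cKO replicate 4 above replicate 1. The genotype estimates of the Kdm5c probes were 0.00 and -0.10.

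**Figure D4:**
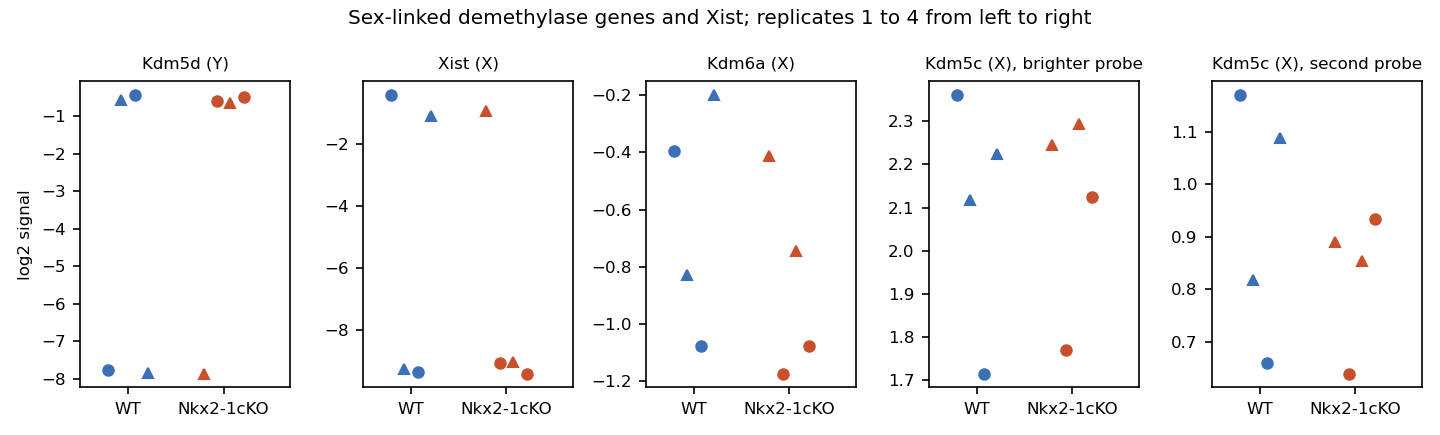
Log2 signal (y axis) of the sex-linked demethylase genes and of Xist on each array, WT in blue and Nkx2-1cKO in orange, replicates 1 to 4 from left to right, circles for slide 1 and triangles for slide 2. Kdm5d is near -8 on the 3 arrays where Xist is above -2, and these 3 arrays hold the 3 highest Kdm6a values.

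Enzymes of DNA methylation were likewise uncalled on all 8 probes, with a median log2 fold change of 0.01 (0.13 under median centring). The maintenance methyltransferase Dnmt1 had a log2 fold change of 0.16 (interval -0.20 to 0.52) and the de novo enzyme Dnmt3a 0.02 (-0.21 to 0.26). Dnmt3b, the other de novo enzyme, had 0.08, and Tet2, which oxidises methylcytosine, had -0.13. Dnmt3l, a catalytically inactive partner of the de novo enzymes, was dim and variable, with WT values of -4.23, -5.17, -4.55 and -5.25 and Nkx2-1cKO values of -5.02, -4.71, -5.46 and -4.51. All 4 higher values were on slide 1, and the slide difference was -0.72 (adjusted p = 0.029, limma).

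The CHD remodellers, 8 genes with 22 probes, had no call and 3 probes with groups that did not overlap, all lower (13.6%, beside 4.12% of all tested probes). Chd9 had the lowest estimate by brightest probe of all 64 genes. It read 1.00, 0.61, 0.56 and 0.30 in WT and 0.27, 0.19, 0.06 and -0.02 in the Nkx2-1cKO. The lowest WT array and the highest Nkx2-1cKO array were close, while WT replicate 1 was far above. The log2 fold change was -0.49 (standard error 0.14, interval -0.81 to -0.17, adjusted p = 0.262, limma), with -0.69 on slide 1 and -0.29 on slide 2. A dimmer Chd9 probe also had no overlap, at -0.33 (adjusted p = 0.411, limma), and the 2 others gave -0.32 and -0.01 with overlapping groups. Under normexp the 3 dimmer probes gave 0.05, 0.11 and 0.19, and the brightest -0.49. Without WT replicate 1 the brightest probe gave -0.36 and the last of these 0.17.

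Chd6, of the same subfamily as Chd9, read -0.15, -0.30, -0.29 and -0.36 in WT and -0.66, -0.38, -0.51 and -0.58 in the Nkx2-1cKO. The groups did not overlap, by a margin of 0.02. The log2 fold change was -0.26 (standard error 0.09, adjusted p = 0.443, limma) and the same on both slides, and all 3 other Chd6 probes were below 0, with overlapping groups, though 2 of them were above 0 under normexp (0.18 and 0.25). Chd8, an ATPase known for its link to autism, was bounded between -0.30 and 0.16. The NuRD ATPases Chd3, Chd4 and Chd5 had brightest-probe estimates of 0.15, 0.15 and -0.05, and each had probes of both signs.

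**Figure D5:**
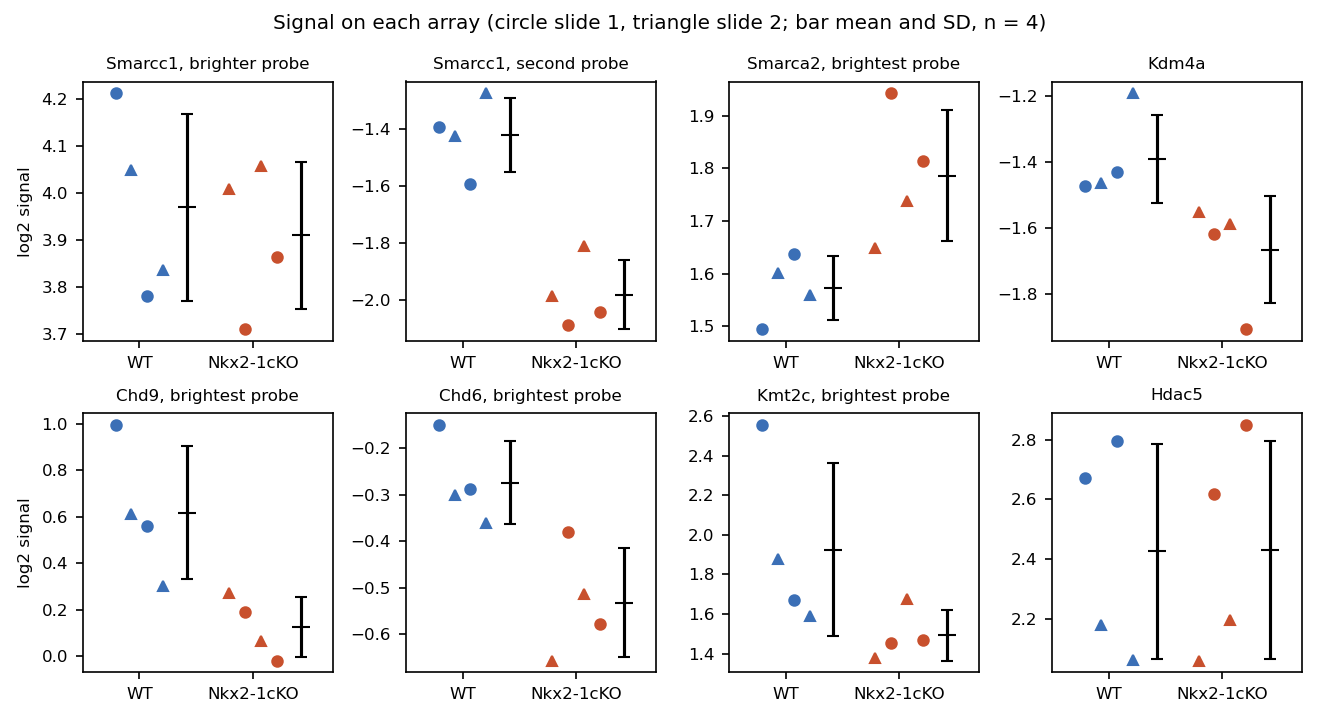
Log2 signal (y axis, a separate scale in each panel) of 8 member probes on each array, WT in blue and Nkx2-1cKO in orange, circles for slide 1 and triangles for slide 2, with the mean and SD of each group (n = 4). The second Smarcc1 probe separates the genotypes by 0.22 or more, the brighter Smarcc1 probe does not separate them, and Hdac5 separates by slide.

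The SWI/SNF and ISWI remodellers, 13 genes with 26 probes, held the single call. Smarcc1 encodes BAF155, a scaffold subunit of SWI/SNF complexes that is abundant in neural progenitors. The probe that was called read -1.39, -1.43, -1.59 and -1.27 in WT and -1.99, -2.09, -1.81 and -2.04 in the Nkx2-1cKO. Every Nkx2-1cKO array was below every WT array. This was a fall to 67.8% of the WT level (95% interval 57.4% to 80.1%, log2 fold change -0.56, standard error 0.11, adjusted p = 0.0441, limma), and the slides gave -0.57 and -0.55. The brighter Smarcc1 probe read 4.21, 4.05, 3.78 and 3.84 in WT and 4.01, 3.71, 4.06 and 3.86 in the Nkx2-1cKO, with overlapping groups. It gave 96.0% of the WT level (80.2% to 115%, log2 fold change -0.06, adjusted p = 0.87, limma). Which transcripts each probe reads was not analysed here. The call of the second probe was lost when any 1 of the 8 arrays was left out (adjusted p of 0.0552 to 0.153, limma). It was also lost under quantile normalization, median centring and normexp (adjusted p of 0.108, 0.508 and 0.852, limma), with the log2 fold change at -0.26 under normexp, and it passed with slide as a block (adjusted p = 0.0146, limma).

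Smarca2, an ATPase of SWI/SNF also known as BRM, had probes that disagreed in sign. The brightest read 1.49, 1.60, 1.64 and 1.56 in WT and 1.65, 1.94, 1.74 and 1.81 in the Nkx2-1cKO, with no overlap by a margin of 0.01. Its log2 fold change was 0.21 (interval 0.02 to 0.40, adjusted p = 0.515, limma). The other Smarca2 probes gave -0.72 and -0.81 with overlapping groups (adjusted p = 0.604 and 0.526, limma), and the dimmer of these was at 0.39 under normexp. On the first of these, Nkx2-1cKO replicates 3 and 4 read -1.93 and -2.44 and the other 6 arrays between -0.98 and -0.50. The mean of the 3 probes gave -0.44. Smarca4, the alternative ATPase known as BRG1, was bounded between -0.28 and 0.25 on its brightest probe. Smarcd3, a SWI/SNF subunit also known as BAF60C, had an estimate of -0.14 that rested on Nkx2-1cKO replicate 3, at 2.58 against 3.42 to 3.68 on the other Nkx2-1cKO arrays. Without that array it was 0.10. Over the 34 member genes with several probes, 16 had all estimates below 0, 5 had all above 0 and 13 had both signs.

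Genes of the same complexes outside the symbol rule were read from lists of 121 genes, of which 113 were tested with 202 probes. They were other BAF subunits, deacetylase complex partners, other Polycomb proteins, other histone methyltransferases with H3K4 complex partners, other acetyltransferases and acetyl readers, and methyl-DNA readers with other remodellers. None of the 202 probes was called by limma, and the lowest adjusted p was 0.178, for Ncoa2, a nuclear receptor coactivator with a log2 fold change of -0.45. Unadjusted p-values were under 0.05 for 8 probes above 0 and 6 below. The median was 0.01, and 48.0% lay below 0. By list, the medians ran from -0.08 for methyl-DNA readers with other remodellers to 0.11 for other Polycomb proteins, where 8 of 31 probes lay below 0 and probes for the chromobox proteins Cbx6 and Cbx7 and for the PRC2 partner Mtf2 were higher in every Nkx2-1cKO array than in any WT array, all uncalled. These are 3 of 31 probes (9.68%), beside 2.33% of all tested probes.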

How the data were processed

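The authors hybridised Cy3-labelled RNA to 1-colour Agilent mouse arrays and deposited Feature Extraction output (version 10.7.3.1 per the file headers, 10.1 per the submitters' processing notes), in which each spot's intensity is background-subtracted but not scaled between arrays. Control and outlier spots were left out here, and intensities were turned into log2 values relative to each array's 75th percentile. Spots of 1 probe were averaged. Accessions of 24844 of 41174 probes matched a RefSeq table (GRCm38.p6). Testing covered 31283 probes that stood well above background on 4 or more arrays, with 53 missing values and none in members. The fit was lmFit, then eBayes with a variance trend (limma 3.58.1, R 4.3.3) and Benjamini-Hochberg adjustment, a procedure tested on simulated data. A gene is represented by its brightest tested probe. The number of arrays limits the precision, and 4 against 4 arrays allow no exact permutation p below 0.0286.

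Members and lists were chosen with earlier results of these data known. Members named by rule were those with a called probe, up to 10 whose groups did not overlap on the brightest probe (4 fitted), the histone mark enzymes, Kdm5c with Kdm5d, and the 5 with the largest SD. Other members named with values were chosen after their values were seen. Alternatives were quantile normalization, median centring, normexp, other filters, slide or replicate number as a block, no trend, array weights, averaging the probes of a gene and dropping single arrays. Normexp used median signals with an offset of 50.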

Additional observations from a re-analysis of the deposited data

Results flagged for a closer look

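Within each group of 4 arrays, the brightest probe of each member was examined for 1 array far from the other 3, by Dixon's ratio. Of 130 groups examined, 9 had such an array, and chance gives 6.5. The 130 are slightly more than the brightest probes of 64 members in WT and Nkx2-1cKO give, so they take in a little beyond these. No explanation was tested.

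Kdm5d was at -7.859 on Nkx2-1cKO replicate 1 and between -0.642 and -0.498 on the other Nkx2-1cKO arrays. Nkx2-1cKO replicate 1 was also low for both acetyltransferase genes, with Crebbp at -3.566 (others -3.156 to -3.097) and Ep300 at -1.069 (others -0.701 to -0.632). Nkx2-1cKO replicate 3 was high for Kdm2b, an H3K36 demethylase gene, at 2.855 (others 2.393 to 2.452). In WT, replicate 4 was high for Smarcd3 at 3.727 (others 3.327 to 3.389) and for Kdm4a at -1.192 (others -1.473 to -1.431). WT replicate 3 was low for Kdm5b, an H3K4 demethylase gene, at 0.6731 (others 0.863 to 0.873) and for Dnmt3b at -2.524 (others -2.443 to -2.429). WT replicate 2 was high for Chd5 at 1.762 (others 1.472 to 1.513).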

How the results depend on the processing

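The count of 0 member probes higher held under every alternative run. The 1 lower member probe, the second Smarcc1 probe, was kept with probes well above background on all 8 arrays, with a filter on the mean signal, with slide as a block and with array weights. The count was 0 under quantile normalization, median centring, normexp, no filter, a fit without the trend, averaging over each gene's probes and every leave-one-out fit, with estimates of that probe between -0.62 and -0.26 over the alternatives. Among all tested probes, the counts were 115 lower under median centring, 64 higher and 91 lower under normexp, 209 higher with slide as a block, 87 higher without the trend and 291 lower with array weights. Leaving out 1 array gave 65 to 118 higher and 130 to 174 lower. Median centring moved the median of all probes by 0.12 and normexp by 0.23. The cause of these differences was not tested, and dim probes are the least certain.

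With replicate number as a block, 0 member probes were called, with 8 probes higher and 64 lower among all. Arrays of the same number correlated between -0.481 and -0.194 in their deviations, but each such pair lay across the 2 slides. Slide differences were not removed from these deviations, so the correlations cannot decide whether a shared number pairs samples.

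Among members named by rule, uncalled log2 fold changes changed sign as follows. Not all were near 0, since the main fit gave Kdm4d -0.29, Crebbp -0.24 and Smarca2 0.21. Probes of other members changed sign too and are not listed. Quantile normalization gave Dnmt3l 0.17, Kdm4d 0.15 and Kdm5c -0.0403. Median centring added the same 0.12 to the log2 fold change of every probe. It gave Eed 0.0141, Ezh1 0.0102, Ezh2 0.0317, Hdac2 0.109, Kdm1a 0.0474, Kdm6b 0.0767 and the brighter Smarcc1 probe 0.0609. The median of all probes was 0.08 in that fit, and of these genes only Hdac2 lay above it. Normexp gave Crebbp 0.27, Dnmt3l 0.60, Ezh1 0.30, Hdac2 0.0146, Hdac3 -0.0385, Kdm4d 0.62 and Kdm5c -0.0852. Array weights gave Dnmt3l 0.11 and Eed 0.0086. Averaging over probes gave Kdm5c -0.0504, Smarca2 -0.44 and Suz12 0.0663. Leaving out 1 array ranged from -0.28 to 0.0629 for Dnmt3l, -0.0554 to 0.0382 for Hdac2, -0.13 to 0.12 for Kdm5c, -0.13 to 0.0090 for Kdm6b, -0.12 to 0.0215 for the brighter Smarcc1 probe and -0.27 to 0.10 for Smarcd3.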
